A study of Mus musculus with 23 samples.

Results

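Transcripts of 10 microtubule-associated proteins and cross-linkers were followed in RNA from hippocampal synapses. They are the genes with the symbols Map2, Map1a, Mapt, Map1b, Macf1, Dst, Dcx, Dclk1, Map4 and Map6, chosen by name, and all 10 were among the 22018 mRNAs and the 48709 gene identifiers of the total RNA tables. Synaptosomes, which are pinched-off nerve endings that reseal during homogenization, came from the hippocampi of 3-month-old male C57B/6J mice (3 pools of animals, 1 library each). The chambers were microfluidic devices in which CD1 hippocampal neurons from embryos grew for 14 days and formed synapses in a narrow perfusion channel, and the channel was cut out with its RNA. Chamber libraries were treated with 50 mM KCl for 2 h, which depolarizes neurons (3 libraries, KCL1, KCL1a and KCL4), or were untreated controls (8 libraries), and each pooled 2 chambers. The labels name no genetic change in either strain. The cut channel holds neurites as well as synapses, and synaptosomes carry attached pieces of other cells, so neither preparation is free of material from outside the synapse. Of the controls, 5 had bare numbers as titles (C1, C2, C3, C9 and C11) and 3 had titles that begin with letters (Ctrl3, Ctrl4 and sc3). C1 and C11 each match a pair of control titles that share the number and differ in a letter after it, so these libraries are known as controls but not by a single title. What sets the 2 kinds of title apart is not given in the labels, nor is it stated which libraries came from separate cultures, so p-values measure the spread between libraries, which may be partly technical.

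Microtubules are polar tubes of tubulin that fill axons and dendrites and serve as tracks for transport. Microtubule-associated proteins bind along the lattice, stabilize it and set the spacing between tubes, and neurons sort them between compartments. MAP2 and MAP1A proteins are best known from dendrites, tau (the product of Mapt) and MAP1B from axons, and Map2 is a classic case of an mRNA carried into dendrites. MACF1 and dystonin (Dst) are giant spectraplakins that bind actin with one part and microtubules with another. Doublecortin (Dcx) and its relative Dclk1 stabilize microtubules of young neurons, MAP4 is the widely expressed relative of MAP2 and tau, and MAP6 makes microtubules resistant to cold.

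The genes lie on mm10 at chr1:66175273-66442583 (Map2), chr2:121289600-121310832 (Map1a), chr11:104231390-104332090 (Mapt), chr13:99421446-99516540 (Map1b), chr4:123349633-123684360 (Macf1), chr1:33908225-34308661 (Dst), chrX:143855842-143933311 (Dcx), chr3:55242364-55539068 (Dclk1), chr9:109931460-110083955 (Map4) and chr7:99267447-99337137 (Map6). Their annotated exons cover 7.53 kb (Mapt) to 41.16 kb (Dst), so levels of different genes were ordered only per kilobase of exon. Ratios of counts between genes were used only to compare libraries with each other, since length is the same in all of them. Family members are alike in sequence, and reads of one could in principle be counted for another. Coding stretches of 54 bases that are alike are shown here for 2 families for this reason, with capitals where all genes of a set carry the same base (GENCODE vM21 on GRCm38, coding strand). The first set comes from the repeats with which MAP2, tau and MAP4 bind tubulin, at chr1:66425460-66425513 in exon 12 of Map2 (+ strand), chr11:104310466-104310519 in exon 9 of Mapt (+ strand) and chr9:110068917-110068970 in exon 13 of Map4 (+ strand).
Map2: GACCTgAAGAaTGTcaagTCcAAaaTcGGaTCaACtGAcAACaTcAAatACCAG
Mapt: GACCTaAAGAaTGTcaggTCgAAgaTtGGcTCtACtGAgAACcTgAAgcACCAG
Map4: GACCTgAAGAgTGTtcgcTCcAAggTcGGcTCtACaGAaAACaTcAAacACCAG

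Here 36 of the 54 bases were the same in all 3 genes. The second set is from the calcium-binding EF-hand region near the end of the cross-linkers, at chr4:123366367-123366420 in exon 92 of Macf1 (- strand) and chr1:34295183-34295236 in exon 95 of Dst (+ strand), with 49 bases the same.
Macf1: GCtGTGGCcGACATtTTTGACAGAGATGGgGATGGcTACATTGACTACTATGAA
Dst: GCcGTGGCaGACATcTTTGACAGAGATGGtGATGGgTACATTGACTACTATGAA

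The longest run of bases shared without a mismatch was 20 bases between transcripts of Macf1 and Dst. Over the 45 pairs of members it was 56 bases at most (Dcx and Dst), and 29 bases in the next pair. On the opposite strand, exons of other genes overlap 2.24% of the exon bases of Map1a and 3.63% of those of Dst, and up to 0.75% of those of Map2 and Dclk1. The strand setting of the authors' counting is not given in the sources used here, so reads of these overlaps cannot be assigned.

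Library depth and composition differed widely. Libraries held 14714196 to 16667516 counts in synaptosomes, 2632490 to 80883504 in KCl chambers and 722529 (Ctrl4) to 48281227 (sc3) in control chambers. mRNAs took 11.0% to 12.1% of the counts in synaptosomes, 68.3% to 75.0% in KCl chambers and 70.0% to 97.3% in controls, with the highest share in sc3. Levels are therefore given as CPM of mRNAs alone (mRNA CPM, the count of a gene scaled to the mRNA total of its library). Genes of olfactory, vomeronasal and taste receptors, which are sensory receptors of other tissues, took at most 0.000177% of the counts in synaptosomes, 0.0548% to 0.428% in KCl chambers and 0.00626% (sc3) to 1.08% (Ctrl4) in controls. Neuron markers were present in all groups (12 genes, none without counts). They summed to 4051 to 5121 mRNA CPM in synaptosomes, 3348 to 6092 in KCl chambers and 1002 (Ctrl4) to 7098 (sc3) in controls. The 12 astrocyte markers summed to 21024 to 26995 mRNA CPM in synaptosomes, 2859 to 5041 in KCl chambers and 1323 to 9548 in controls, and the 10 microglia markers to 1981 to 2715, 24.5 to 191 and 26.9 to 373 in the same order. In such bulk RNA, fewer cells of a type and less RNA per cell cannot be told apart.

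The 10 genes together made up 1.26 ± 0.152% of the mRNA counts in synaptosomes (SD, n = 3), 1.42 ± 0.375% in KCl chambers (n = 3) and 0.741 ± 0.382% in control chambers (n = 8). Single libraries had 1.16%, 1.20% and 1.44% in synaptosomes, and 1.55%, 0.997% and 1.71% in KCL1, KCL1a and KCL4. Controls ran from 0.272% in Ctrl4 to 1.23% in C1, so the KCl libraries overlapped the controls. The 4 chamber libraries with the highest receptor share (C3, C9, Ctrl3 and Ctrl4, 0.563% to 1.08%) had 0.272% to 0.707% on the 10 genes. The other chamber libraries had 0.997% to 1.71%, with the exception of sc3, which was low in both (0.321% on the 10 genes). In Ctrl4 the counts per kilobase of the 10 genes were only 2.89 (Dcx) to 9.95 (Map1b) times those of the receptor genes. The part of this background in the results below was not tested.

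**Figure D1:**
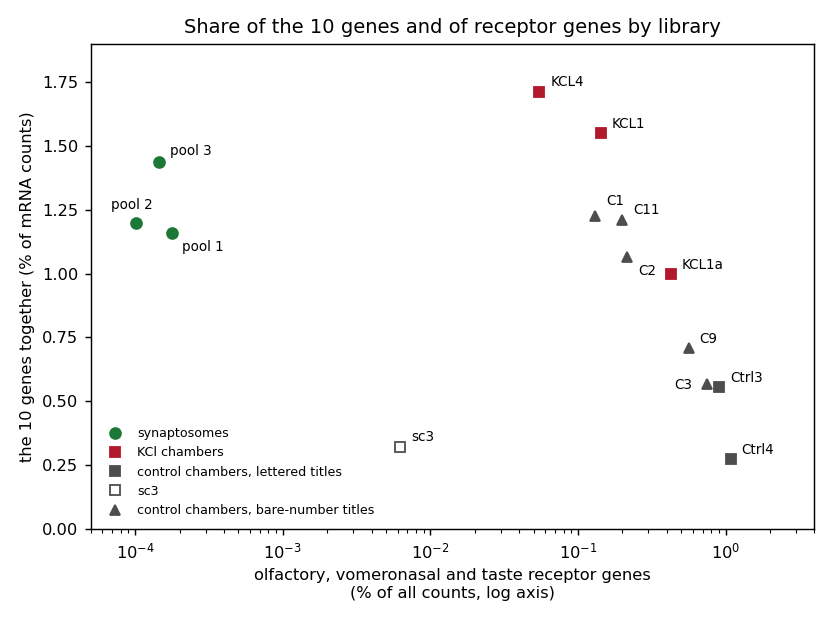
Share of the 10 genes among mRNA counts (vertical axis, %) against the share of olfactory, vomeronasal and taste receptor genes among all counts (horizontal log axis, %), 1 point per library. Ctrl4 has the highest receptor share of the chambers (1.08%) and the lowest share of the 10 genes (0.272%), and sc3 stands apart from the other chambers at the lower left.

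At the study's detection cutoff, a mean of 50 CPM of the whole table in synaptosomes and 100 in chambers, 6 of 10 genes were present in synaptosomes, 10 of 10 in KCl chambers and 8 of 10 in control chambers. Of all mRNAs, 1.06%, 6.99% and 6.34% reached the cutoff in these 3 groups. Map1a, Map1b, Map2, Map4, Macf1 and Dst passed everywhere. Mapt and Dclk1 passed in the chambers and not in synaptosomes, and Dcx and Map6 passed in KCl chambers alone. Map6 did so through KCL4, without which it fell under the cutoff. mRNAs took a small share of the synaptosome counts, and with the cutoff on the mRNA total in place of the table total 9 of 10 genes passed in synaptosomes, all but Dcx, beside 13.3% of all mRNAs.

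The genes were next ordered by level per kilobase of exon. In synaptosomes Map1a (228 ± 52.6 mRNA CPM per kb, SD, n = 3), Map2 (167 ± 11.1) and Map1b (160 ± 22.4) were first. Map2 and Map1b differed by less than their spread, and Map1a stood above both by about its own. They were followed at a distance by Macf1 (53.8 ± 4.88), Dst, Map4, Dclk1, Map6, Mapt (22.0 ± 4.77) and, far below, Dcx (0.741 ± 0.206). In KCl chambers Map1b came first (286 ± 87.6 per kb, n = 3), before Map1a (142 ± 61.1), Map2 (114 ± 48.3) and Dclk1 (90.9 ± 33.8). In controls the order of these 4 was the same, with Map1b at 111 ± 50.6, Map1a at 90.0 ± 63.2, Map2 at 70.2 ± 51.9 and Dclk1 at 58.3 ± 40.4 per kb (n = 8). There each differed from the next by less than their spread, although Map1b was above Dclk1 in all 8 controls. Dcx had the lowest mean in every group, at 14.6 ± 3.48 per kb in KCl chambers and 7.32 ± 2.86 in controls. In KCl chambers Map6 (16.3 ± 6.59) differed from Dcx by less than their spread and was above it in 2 of 3 libraries.

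**Figure D2:**
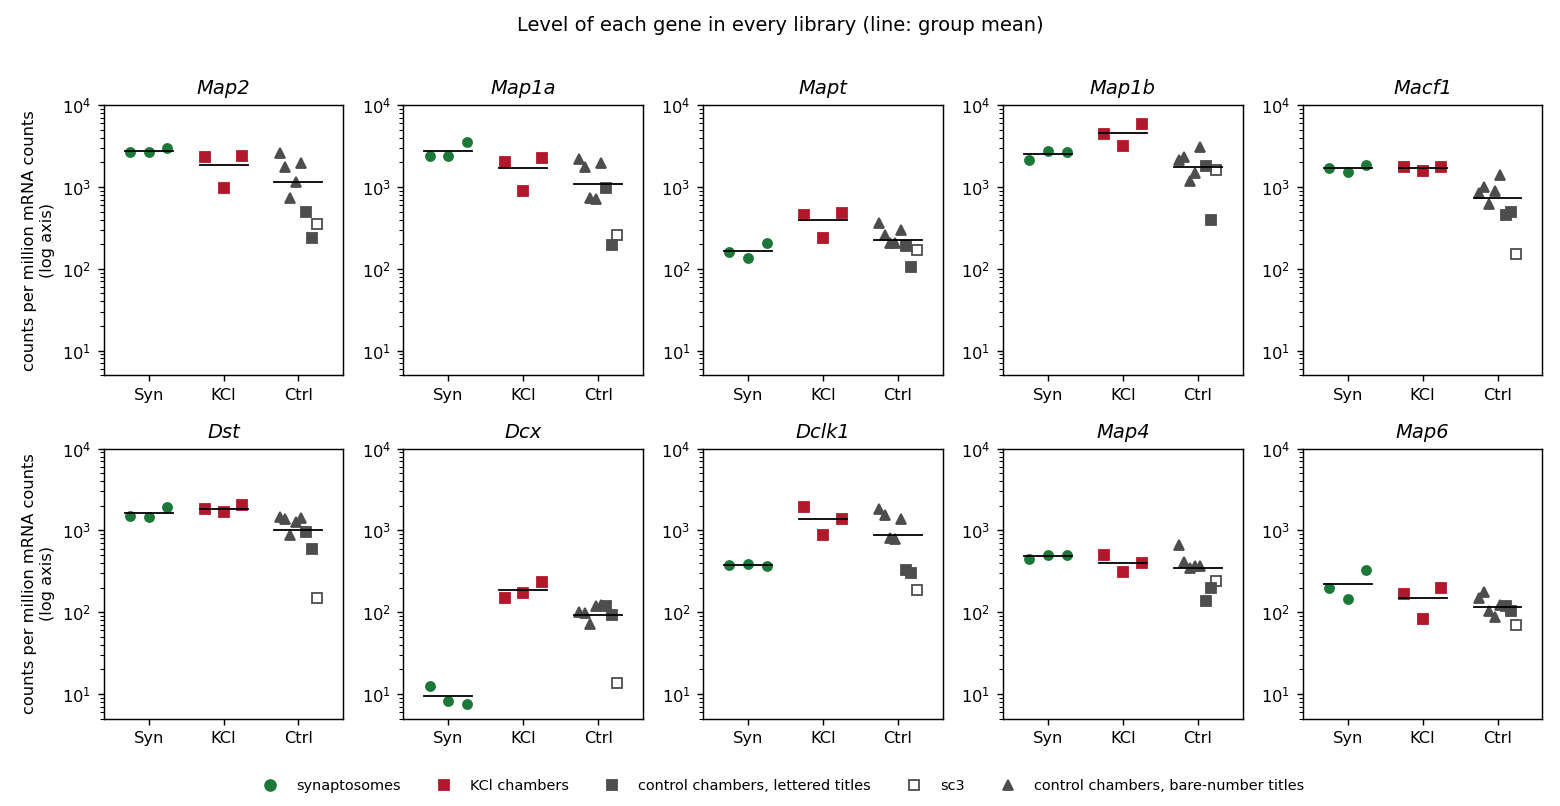
Level of each gene in mRNA CPM (log axis), 1 point per library, for synaptosomes (Syn), KCl chambers and control chambers (Ctrl), with a line at the group mean. Dcx lies at 7.57 to 12.4 in synaptosomes and at 149 to 234 in KCl chambers, and the lettered controls lie under the bare-number controls for Map2, Dclk1, Macf1, Map4 and Mapt.

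Map2 transcripts, which encode the main stabilizer of dendritic microtubules, were at 2641, 2645 and 2959 mRNA CPM in the synaptosome pools. They were at 2311, 963 and 2365 in KCL1, KCL1a and KCL4, and in controls ran from 240 (Ctrl4) over a median of 946 to 2577 (C1). Every synaptosome library thus stood above every control, by a narrow margin over C1, and the KCl libraries lay within the range of the controls. Map1a, whose protein links microtubules in mature dendrites, showed 2401, 2418 and 3518 mRNA CPM in synaptosomes. KCl chambers had 2013, 885 and 2289, and controls 197 (Ctrl4) to 2172 (C1) with a median of 852. Here too the synaptosomes were above all 8 controls, and only KCL4 exceeded the highest control.

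Map1b, which encodes the MAP1 protein of growing axons, was highest in the KCl chambers, with 4426, 3203 and 5973 mRNA CPM in KCL1, KCL1a and KCL4. Synaptosomes had 2121, 2762 and 2704, and controls 400 (Ctrl4) to 3085 (C11) with a median of 1707. All KCl libraries were above all controls, whereas synaptosomes and controls overlapped. Mapt, which encodes tau, had 158, 134 and 204 mRNA CPM in synaptosomes, 459, 238 and 485 in KCl chambers, and 105 (Ctrl4) to 361 (C1) with a median of 206 in controls. KCL1 and KCL4 exceeded the highest control, KCL1a lay among the controls, and the synaptosomes lay at their lower end.

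The cross-linker Macf1, which guides microtubules along actin, had 1698, 1531 and 1837 mRNA CPM in synaptosomes. KCl chambers had 1764, 1578 and 1738, and controls 154 (sc3) to 1404 (C11) with a median of 726. Both groups stood above every control and coincided with each other. Dst, whose neuronal product connects cytoskeletal filaments in axons, had 1521, 1442 and 1952 in synaptosomes, 1808, 1658 and 2071 in KCl chambers, and 151 (sc3) to 1466 (C1) in controls, with a median of 1107. All KCl libraries and 2 of 3 synaptosome pools were above every control. The log2 ratio of Macf1 to Dst counts within a library was 0.05 ± 0.13 in synaptosomes, -0.12 ± 0.12 in KCl chambers and -0.45 ± 0.37 in controls (SD, n = 3, 3 and 8), from -1.07 to 0.03 in the last group.

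Dcx, a marker of young neurons, was the lowest of the 10 in synaptosomes, with 12.4, 8.17 and 7.57 mRNA CPM, from 22, 15 and 14 counts. It had 149, 172 and 234 mRNA CPM in KCl chambers and 13.8 (sc3) to 124 (C11) in controls, with a median of 100.2. The 3 groups did not overlap, with sc3 near the synaptosomes and the other controls at 71.5 or more. Dclk1, which pairs a doublecortin domain with a kinase, stayed clearly present in synaptosomes, with 375, 393 and 367 mRNA CPM. It had 1914, 882 and 1373 in KCl chambers and 185 (sc3) to 1820 (C1) in controls, with a median of 797. The synaptosomes lay above the lettered controls and below the bare-number ones, which separate at this gene (185 to 333 against 781 to 1820). Per library, the log2 ratio of Dclk1 to Dcx was 5.37 ± 0.39 in synaptosomes, 2.86 ± 0.71 in KCl chambers and 3.09 ± 1.02 in controls (SD, n = 3, 3 and 8), with no control above 4.17.

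Map4, which is used in dividing and glial cells as well as neurons, varied least in its group means (483, 400.2 and 343 mRNA CPM in synaptosomes, KCl and control chambers). It had 447, 495 and 508 mRNA CPM in synaptosomes, 494, 310 and 396 in KCl chambers, and 136 (Ctrl3) to 672 (C1) in controls, with a median of 358, and all groups overlapped. Map6 had 199, 146 and 327 mRNA CPM in synaptosomes, 167, 81.8 and 198 in KCl chambers and 69.8 (sc3) to 177 (C2) in controls, with a median of 111. Pools 1 and 3 and the library KCL4 were above every control.

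Dendritic and axonal transcripts were then set against each other within each library, as the log2 ratio of summed Map2 and Map1a counts to summed Mapt and Map1b counts. This ratio needs no scaling between libraries, and it is described without a test because the genes were chosen with results of these data known. It was 1.15, 0.81 and 1.16 in the synaptosome pools, -0.18, -0.90 and -0.47 in KCL1, KCL1a and KCL4, and -1.56 (sc3) to 0.94 (C1) in controls, with a median of 0.12. The means were 1.04 ± 0.20, -0.52 ± 0.36 and -0.05 ± 0.74 (SD, n = 3, 3 and 8). The size and the sign of the ratio depend on how the genes are combined, since longer and more abundant genes weigh more in summed counts. From the mean log2 CPM of each side the means were 2.10 ± 0.03, 0.38 ± 0.27 and 0.56 ± 0.71, with all 3 KCl libraries above 0, and the synaptosomes were again the highest group. There C1 (1.44) was the highest chamber library and lay below all pools (2.06 to 2.12). By the summed counts, the control C1 lay between pool 2 and the other pools, and every other chamber library was below all synaptosome libraries. KCl and control chambers overlapped. Without sc3 the mean of the controls was 0.17 ± 0.44 (n = 7), and the 5 bare-number controls (0.074 to 0.94) lay above the 3 lettered ones (-1.56 to -0.21) and above the KCl libraries.

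The ratio rests on Map1b, which gives most of the axonal counts. Map2 over Map1b alone was 0.13 ± 0.19 on the log2 scale in synaptosomes, -1.34 ± 0.40 in KCl chambers and -0.83 ± 0.82 in controls. The control C1 (0.29) was then above pools 2 and 3 (-0.06 and 0.13), so synaptosomes and controls overlapped. Map2 over Mapt alone was 4.07 ± 0.23, 2.21 ± 0.17 and 2.03 ± 0.75 in synaptosomes, KCl chambers and controls. Here no chamber library exceeded 2.83 and no synaptosome library was under 3.86. On this pair the KCl and control means were close, but the 2 kinds of control were apart. The KCl libraries (2.02 to 2.33) lay above the lettered controls (1.07 to 1.38) and within the range of the bare-number ones (1.85 to 2.83). In the sums, the KCl libraries were below the bare-number controls and overlapped the lettered ones. The part of Map1b in this was not tested.

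**Figure D3:**
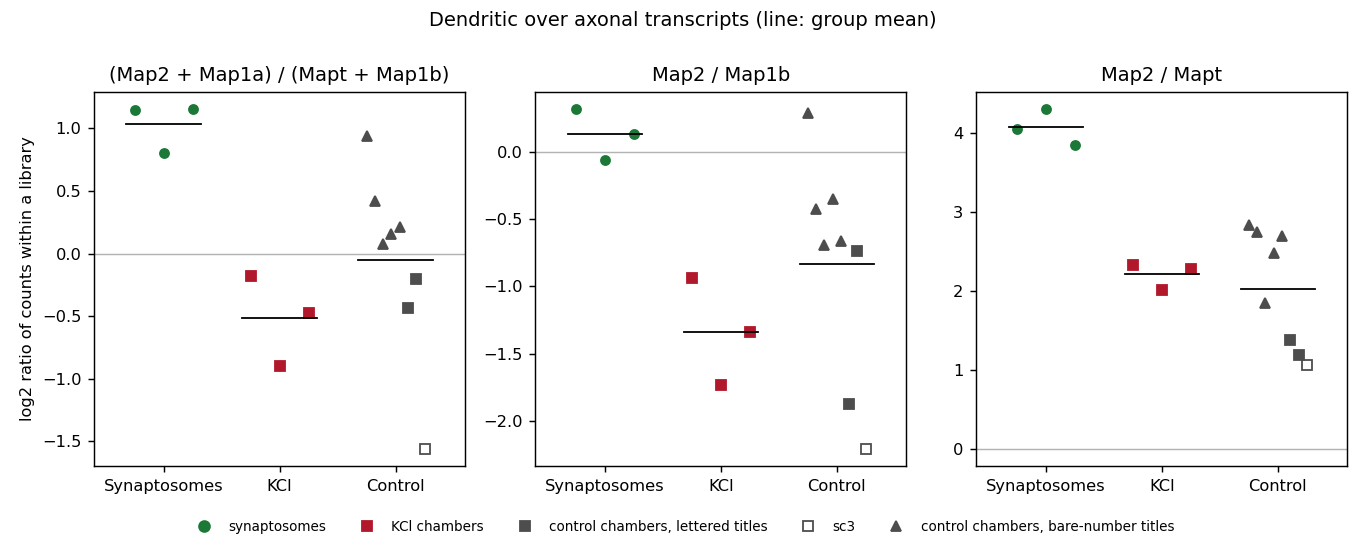
Log2 ratio of dendritic to axonal counts within each library for the summed genes, for Map2 over Map1b and for Map2 over Mapt (vertical axes), with a line at the mean of synaptosomes, KCl chambers and control chambers. Synaptosomes are highest for Map2 over Mapt (3.86 to 4.31, chambers up to 2.83), and sc3 is lowest for the summed genes (-1.56).

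Synaptosomes were tested against the control chambers over the mRNAs with edgeR's quasi-likelihood test, and a gene was called where the adjusted p (Benjamini-Hochberg) was 0.05 or less and the log2 fold change exceeded 1 in either direction. The preparations differ in age, strain, tissue, isolation and library kit, and these cannot be told apart from the synaptosome itself. Of the 10 genes, 2 rose and 1 fell, beside 4.68% of the 18412 mRNAs tested that were called higher and 7.4% that were called lower. Map6 was higher by 2.02 ± 0.43 on the log2 scale (SE, edgeR adjusted p = 0.0124) and Macf1 by 2.31 ± 0.61 (edgeR adjusted p = 0.0292). Dcx was lower, with a log2 fold change of -2.12 ± 0.58 (edgeR adjusted p = 0.0328). Scaled by library size alone, which moved the median of the 10 genes by -1.06 and that of all mRNAs by -1.11, Map6 (0.93, edgeR adjusted p = 0.0552) and Macf1 (1.20, 0.0835) lost their calls and Dcx (-3.31, 0.0047) kept its own.

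The dendritic genes had the next values without a call. Map1a had a log2 fold change of 2.38 ± 0.77 (edgeR adjusted p = 0.0538) and Map2 one of 2.26 ± 0.77 (0.0634, same test). Dst had 1.82 ± 0.63 (0.0654), Map1b 1.52 ± 0.71 (0.133) and Map4 1.51 ± 0.56 (0.0765), all by edgeR. Mapt, at 0.59 ± 0.51 (0.402, and at -0.45 when scaled by library size alone), and Dclk1, at -0.19 ± 0.74 (0.868), lay within about 1 SE of 0. In all, 8 of 10 fold changes were positive against 30.1% over all mRNAs, with a median of 1.67 against -0.99, and 8 of 10 had an unadjusted edgeR p under 0.05, against 36.9%.

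By the plain comparison of libraries, 3 of the 10 genes (Map1a, Map2 and Macf1) were above the controls in every synaptosome library, beside 2.85% of mRNAs, and 1 (Dcx) was below, beside 19.0%. Against the KCl chambers, Map1a and Map2 were higher in every synaptosome library (7.99% of mRNAs were), and Map1b, Mapt, Dcx and Dclk1 were lower (45.6% of mRNAs were). The call counts depend on single libraries. Without sc3, 7 of the 10 genes were called (Map1a, Map2, Map4, Macf1, Dst and Map6 higher and Dcx lower), beside 12% of mRNAs called higher and 26.5% called lower, so calls became more frequent over all mRNAs as well. Without C1 6 were called (10.4% of mRNAs in either direction), without C9 1 (Map6, 6.59% of mRNAs), and without C3 or C11 2 (6.54% and 9.26%). Without synaptosome pool 1 or pool 3 edgeR called none, with 7 of 10 at an unadjusted p under 0.05, and without pool 2 it called Map6 alone (1.22% to 1.86% of mRNAs were called without a pool). DESeq2 over all libraries called 8 of the 10, the 7 higher ones being Map1a, Map1b, Map2, Map4, Macf1, Dst and Map6, beside 8.79% of mRNAs called higher and 28.0% called lower. Astrocyte and microglia markers, which were far higher in the synaptosomes (above), are expressed in cells that also use Macf1, Dst and Map4, and their part in these differences was not tested.

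**Figure D4:**
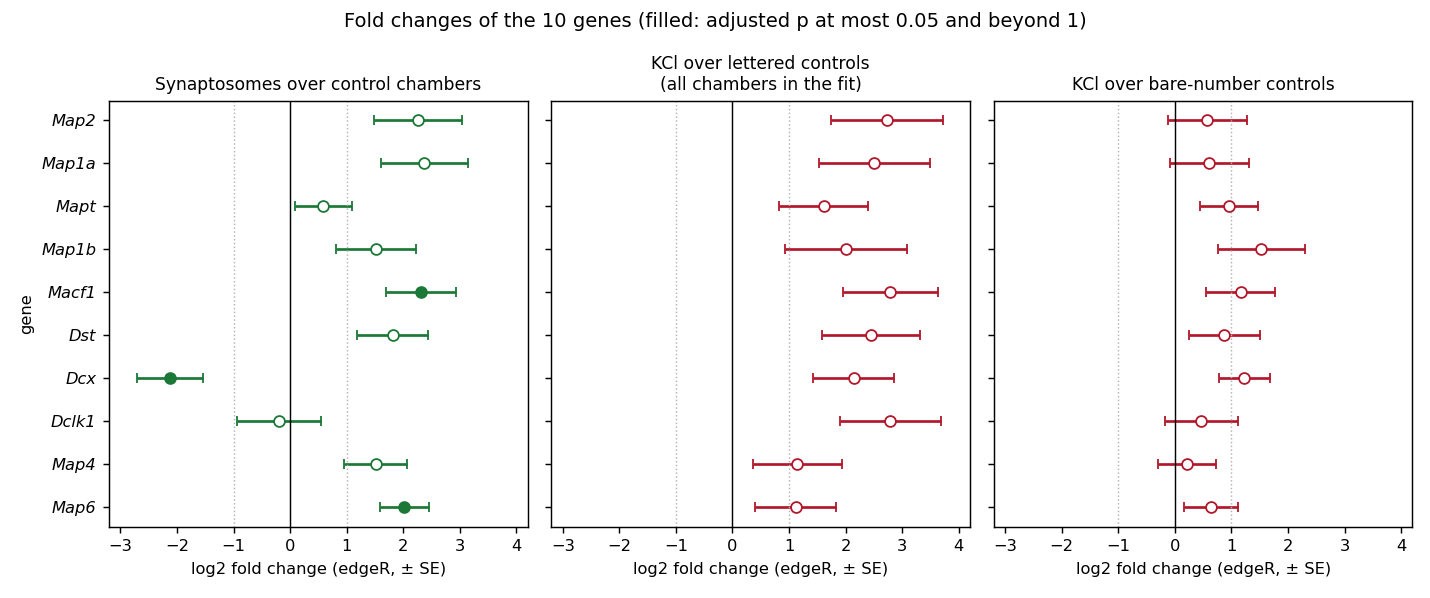
Log2 fold change of each gene with its SE (edgeR) for synaptosomes over control chambers, for KCl over the lettered controls with all chambers in the fit, and for KCl over the bare-number controls alone. Filled points passed the call, which held for Macf1, Dcx and Map6 in synaptosomes (2.31, -2.12 and 2.02) and for none with KCl.

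The question of the KCl chambers is whether depolarization alters the RNA of the synaptic compartment. The control libraries are the same as those set against synaptosomes. All KCl titles hold letters, so with a term for the kind of title the fit sets KCl against Ctrl3, Ctrl4 and sc3, and the bare-number controls only add to the estimate of the spread. None of the 10 genes was called by edgeR, beside 0.00354% of the 28232 genes tested that were called higher (1 gene, the predicted Gm22009, named after its value was seen) and 0 called lower. All 10 fold changes were positive, against 35.6% over all genes, with a median of 2.30 against -0.53. An unadjusted edgeR p under 0.05 was reached by 6 of the 10, against 6.16% of all genes.

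Dclk1 and Macf1 had the largest values, 2.79 ± 0.89 and 2.79 ± 0.85 on the log2 scale (SE, edgeR adjusted p = 0.584 and 0.543). Map2 was at 2.73 ± 0.99, Map1a at 2.51 ± 0.99, Dst at 2.45 ± 0.87 and Dcx at 2.15 ± 0.72 (edgeR adjusted p of 0.677, 0.733, 0.646 and 0.620). Map1b was at 2.00 ± 1.08, Mapt at 1.61 ± 0.79, Map4 at 1.15 ± 0.79 and Map6 at 1.12 ± 0.72 (edgeR adjusted p of 0.846, 0.813, 0.929 and 0.917). Leaving out 1 library moved these 4 values by over 1.5 times, and none of the other 6. Without sc3 Map1b was at 3.16, Mapt at 2.51 and Map4 at 2.25, and without Ctrl4 they were at 1.30, 1.04 and 0.67. Without KCL4 Map1b was at 1.32, Mapt at 1.05 and Map6 at 0.45, without KCL1a Map6 was at 1.86, and without Ctrl3 Map4 was at 0.75. These values are against lettered controls that were themselves low in the 10 genes. Set against the bare-number controls alone, the median was 0.75 and the order changed. Map1b was then first (1.53 ± 0.77, edgeR adjusted p = 0.856), followed by Dcx (1.22 ± 0.45, adjusted p = 0.733) and Macf1 (1.16 ± 0.61, adjusted p = 0.856), while Map2 (0.57 ± 0.70) and Map1a (0.61 ± 0.70) were within their errors of 0.

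In the libraries themselves, Map1b, Dcx, Macf1 and Dst were higher in every KCl library than in every control (4 of 10 genes, 0.668% of 19000 mRNAs), and none was lower in all (0.989% of mRNAs). Of the KCl libraries, KCL1a, with the highest receptor share of the 3, had the lowest level of every gene but Dcx. Calls depended on the tool and on sc3. DESeq2 with the same design called 7 of the 10 genes higher (Map1a, Map1b, Map2, Dcx, Dclk1, Macf1 and Dst, with Macf1 at an adjusted p of 5.29e-05 and Dclk1 at 0.00024), beside 406 of all genes higher (1.44%) and 9 lower (0.0319%). Without sc3, edgeR called Map2, Mapt and Dclk1 higher (3 of 10), beside 1324 genes higher (4.08%) and 131 lower (0.404%).

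Other genes of the microtubule system were looked at by the same tests. Of 12 further microtubule-associated proteins, 20 plus-end and minus-end proteins, 12 stathmins and severing enzymes and 14 kinases that act on these proteins, none was called with KCl by edgeR, and the median log2 fold changes were 0.27, 1.07, 0.05 and 1.56. An unadjusted edgeR p under 0.05 was reached by 4, 7, 1 and 7 of them, against 6.16% of all genes. Among these, Map1lc3b of the first list was lower (log2 fold change -2.81, unadjusted edgeR p = 0.0185), and the others were higher. DESeq2 called 2, 5, 1 and 4 higher and 0 lower. Over all 58 genes that is 20.7% higher, against its 1.44% of all genes called higher and 0.0319% called lower. Values of the most abundant ones with KCl were 1.81 for Map7d1, which recruits kinesin, and 2.40 for Map9, 2.83 for Apc, a plus-end scaffold, and 2.38 for the minus-end protein Camsap2. The stathmins Stmn3 and Stmn2, which sequester tubulin, were at 0.43 and 1.39, and the kinases Gsk3b and Fyn, which phosphorylate tau, at 1.84 and 0.85.

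In synaptosomes against control chambers edgeR called 1 kinase higher and 1 stathmin lower among the 58 genes of these lists. Over all mRNAs it called 4.68% higher and 7.4% lower. The medians of the lists were -0.75, 0.15, -0.69 and -0.12. DESeq2 called 0, 2, 0 and 2 of their genes higher and 4, 2, 3 and 0 lower. Over all 58 genes that is 6.9% and 15.5%, against its 8.79% and 28.0% of all mRNAs. An unadjusted edgeR p under 0.05 was reached by 2, 3, 4 and 2 genes of the lists, against 36.9% of all mRNAs. Ttbk2, a kinase of tau and tubulin, rose by 2.22 ± 0.43 on the log2 scale (SE, edgeR adjusted p = 0.00742). Stmn1, the stathmin of proliferating and young cells, had a log2 fold change of -4.44 ± 1.06 (edgeR adjusted p = 0.0194). Values without a call were -1.44 for Map7d1, -1.22 for the autophagy protein gene Map1lc3b, 1.48 for Apc and 0.80 for Camsap2.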

How the data were processed

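Total RNA libraries of hippocampal synaptosomes (3) and of chamber perfusion channels (3 KCl, 8 control) were used, and groups came from the sample labels. Per the submitters' processing notes, the authors converted reads with bcl2fastq 2.20.2, used STAR 2.5.2b for alignment to mm10, and took gene counts from featureCounts 1.5.1. The annotation release is not given in the sources used here. The authors deposited raw counts per gene and library, and CPM values that they scaled to the total of each table. CPM recomputed from the counts equalled the deposited CPM values, with no term for gene length.

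mRNAs were the 22018 genes not in the noncoding table. Levels were computed as CPM of the mRNA total of a library. Symbols matched 48349 of 48709 identifiers, and exon lengths came from GENCODE vM21. edgeR 4.0.16 in R 4.3.3 (quasi-likelihood test, TMM, filterByExpr, Benjamini-Hochberg) was run on the counts. KCl was tested over the whole chamber table with a term for the kind of title, in place of the factor of unwanted variation of the study, and synaptosomes over mRNAs with no covariate. SEs are the log2 fold change over the root of F. Alternatives were DESeq2 1.42.0, other scalings, filters and controls, a replicate block from the numbers in the titles and the omission of single libraries. The fits were tested on simulated data. A comparison of sequence between Dcx and Dclk1 is not reported here. All 10 genes are named in every comparison. Of other microtubule lists, called genes were named, or the most abundant 2 of a list where none was called. With KCl, Map1lc3b was also named, for its direction. The members, lists and marker genes were chosen with earlier results of these data known. Among markers, Cldn5 (vascular) had no counts in KCl chambers. The vascular markers summed to 74.6 to 89.3 mRNA CPM in synaptosomes, 40.9 to 215 in KCl chambers and 60.8 to 543 in controls, fibroblast markers to 196 to 208, 155 to 291 and 46.9 to 518, and oligodendrocyte markers to 1934 to 2909, 536 to 684 and 379 to 2102. The synaptosome noncoding table served only to sort identifiers, and the chamber noncoding and small RNA tables were not used.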

Additional observations from a re-analysis of the deposited data

Results flagged for a closer look

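The control library sc3 held 48281227 counts, far above the other 7 controls (722529 to 4800303), and its gap to the nearest of them took 0.914 of the range of the 8. Its mRNA share, 97.3% of counts (97.2825%), stood off from the next control in the same way, with a gap of 0.554 of the range, which also exceeds Dixon's 95% critical value for 8 values. The levels of the 10 genes and their dendritic to axonal ratio were below it in all 8 controls. In all 15 quantities were looked at, and chance flags about 1 group in 20.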

How the results depend on the processing

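With KCl, all 10 fold changes stayed positive in the 22 alternatives. The genes called among the 10 were 7 with DESeq2 and 0 to 3 with a library left out. Over all genes the count was 415 with DESeq2, 56 with no filter, 7 with bare-number controls, 0 with lettered controls, without the title term or with mRNAs alone (562, 874 and 1553 at an unadjusted edgeR p under 0.05), 422 without sc3 and KCL4, 1554 without sc3 and Ctrl4 (KCl against Ctrl3 alone, taken to vary like the other groups, with the median of all genes at 1.06), 0 against the mean of both kinds of title (1233 unadjusted), and 0 to 1455 with a library left out. A replicate block by title number called 0 of all genes and 0 of the 10 (30 and 0 at an unadjusted edgeR p under 0.05). The numbers share no stated culture, same-numbered libraries correlated at 0.04, -0.11 and -0.31 in their deviations from the group means, and the numbers were not taken as pairs. The cause of these changes was not tested.

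In synaptosomes the genes called among the 10 were 8 with DESeq2, 6 with DESeq2's size factors, 1 with library size alone, 5 with lettered and 8 with bare-number controls, 8 without sc3 and Ctrl4, 7 against the mean of both kinds of title, and 0 to 7 with a library left out. Over all mRNAs the counts were 6775 with DESeq2, 2582 with DESeq2's size factors and 6458 with library size alone. They were 596 with lettered and 7403 with bare-number controls, 6134 without sc3 and Ctrl4, and 2327 against the mean of both kinds of title. With a library left out they ran from 237 to 7036. Library size alone moved the median of all mRNAs by -1.11, and DESeq2's size factors moved that of all genes by -0.22 with KCl. Mapt changed sign with library size alone (-0.45). Dclk1 did with lettered controls (1.55) and with the mean of both kinds of title (0.48), and ran from -0.35 to 0.11 with a library left out.

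The mean log2 ratio of dendritic to axonal genes was 2.10 in synaptosomes, 0.38 in KCl chambers and 0.56 in controls from mean log2 CPM. With Dclk1 added to the dendritic and Map6 to the axonal sum, it was 1.02, -0.069 and 0.35 in the same order. The control C1 (1.32) was then above all synaptosome pools (0.84 to 1.13), and C2 (0.853) was above pool 2 (0.843). Map2 over Map1b gave 0.13, -1.34 and -0.83, and Map2 over Mapt 4.07, 2.21 and 2.03, in synaptosomes, KCl and control chambers. The number of the 10 genes at the detection cutoff stayed within 1.5 times in every group. That of all mRNAs did not, with 2932 on the mRNA total, against 233, in synaptosomes, and 926 in KCl and 186 in control chambers, against 1539 and 1396, where every library had to pass. Depth limits Ctrl4 most, with 55 (Dcx) to 348 (Dst) counts for each gene, and Dcx in synaptosomes. The alternatives without sc3 and KCL4, without sc3 and Ctrl4, and with the mean of both kinds of title were added after the data were seen.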

Other observations

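Profiles over the 11 chamber libraries were compared by the root mean square difference of centred log2 CPM of the whole table. This was done for 7445 mRNAs with at least 10 counts in every chamber library. The mRNAs most like Map2 were Plppr4 (0.24), Ywhag (0.29) and Pdap1 (0.31), beside a median of 1.35 over all of them. Those most like Map1b were Thra (0.22), Ywhae (0.30) and Fau (0.33), beside a median of 1.27. The points share the depth and background of their libraries, and these values are a description.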
